A study of Mus musculus with 12 samples.

Results

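The T and NK cell genes described here are 32 genes that mark T lymphocytes and natural killer (NK) cells. They were taken by symbol from a list of T cell receptor, coreceptor, signalling, cytotoxic granule and NK receptor genes, and all 32 were found among the 55536 genes of the count table. T cells recognise antigen through a receptor whose α and β chains are carried to the surface and coupled to signalling by the CD3 chains. CD4 and CD8 coreceptors divide T cells into helper and cytotoxic cells, and Foxp3 marks regulatory T cells. NK cells lack the T cell receptor but share perforin and granzymes, the proteins of the lytic granules, with cytotoxic T cells. In tumours, transcripts of these genes are commonly read as a measure of lymphocytes in the tissue.

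RNA of 11 mouse tumours and 1 skeletal muscle was sequenced. The 5 translocation tumours carried HprtCre together with Ewsr1-loxP and Atf1-loxP, that is, Cre from the Hprt locus, a gene active in most tissues, and loxP sites through which the mouse Ewsr1 and Atf1 genes can be joined. The 6 Rosa26 tumours carried Rosa26-LSL-EWSR1-ATF1, a fusion transgene at the Rosa26 locus that stays silent until Cre removes a stop cassette, and their labels name no Cre. Clear cell sarcoma, a cancer of soft tissue, carries this EWSR1-ATF1 fusion. The 1 muscle library was labelled WT. All tumours arose genetically, none received a drug, and tissue was snap frozen at morbidity from the primary tumour; age is not among the labels. Separate animals are not stated in the labels, and p-values therefore rest on the spread of these samples, part of which may be technical. The titles of translocation tumours 2 and 5 share a number, as do those of Rosa26 tumours 5 and 6 but for a last digit, and the muscle shares a number with translocation tumour 1.

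Translocation tumours 1 to 5 held 9.01, 2.96, 19.9, 16.6 and 21.2 M counts, Rosa26 tumours 1 to 6 held 14.6, 12.4, 20.4, 6.82, 21.5 and 16.1 M counts, and the muscle held 25 M counts. The 32 genes together held 1199, 84, 1696, 1035 and 560 counts in the translocation tumours, 5083, 306, 1252, 814, 1658 and 1203 counts in the Rosa26 tumours, and 70 counts in the muscle. Levels are given as CPM, a gene's share of the counts of its library, scaled by TMM over the 11 tumours unless the scale of 12 libraries is named. A count of 0 allows up to 3 counts, which is 1.49 CPM in the shallow translocation tumour 2, 0.132 to 0.322 CPM in the other translocation tumours and 0.122 to 0.572 CPM in the Rosa26 tumours. These limits and all count intervals cover counting error only. In bulk tissue, fewer cells of a type and less RNA per cell cannot be told apart.

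Rosa26 tumour 1 stood apart from the other tumours for these genes, with the highest tumour level of 23 of the 32. It also held 3.415% of its counts in 7 skeletal muscle marker genes (9.699% in the muscle library) and 88.8 CPM of the B cell gene Ms4a1, which was at most 0.495 CPM in any other tumour. The part of these in the results was not tested, and log2 fold changes that moved most without this tumour are also given without it. The muscle library itself held 3 counts over 7 T cell receptor and CD3 genes. Ribosomal sequence made up 37.78% of translocation tumour 2, 30% of Rosa26 tumour 4 and 1.345% to 7.385% of the remaining tumours, as a share of counts.

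The 3 CD3 genes Cd3g, Cd3d and Cd3e lie side by side on chromosome 9 and gave some of the lowest levels in the translocation tumours, while Gzma on chromosome 13 had its highest levels there. Their promoters are shown because these genes carry the contrast between receptor and granule genes; each runs from 250 bases before to 50 bases after the transcription start (RefSeq, GRCm38.p6, 5′ to 3′ on the gene's strand). Capitals mark matches, on either strand, to a RUNX core (TGTGGT), an ETS motif (GGAAGT) and a T-box core (AGGTGT). The T-box and RUNX motifs can share letters where they meet, and no matches did so in these 4 windows.
Cd3g promoter, chr9:44980382-44980681 (-): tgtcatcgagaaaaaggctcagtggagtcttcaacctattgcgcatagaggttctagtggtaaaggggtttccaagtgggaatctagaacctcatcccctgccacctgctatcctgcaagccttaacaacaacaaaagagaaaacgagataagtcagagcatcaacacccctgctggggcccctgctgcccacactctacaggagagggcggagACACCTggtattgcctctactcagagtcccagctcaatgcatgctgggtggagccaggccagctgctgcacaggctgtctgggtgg
Cd3d promoter, chr9:44981536-44981835 (+): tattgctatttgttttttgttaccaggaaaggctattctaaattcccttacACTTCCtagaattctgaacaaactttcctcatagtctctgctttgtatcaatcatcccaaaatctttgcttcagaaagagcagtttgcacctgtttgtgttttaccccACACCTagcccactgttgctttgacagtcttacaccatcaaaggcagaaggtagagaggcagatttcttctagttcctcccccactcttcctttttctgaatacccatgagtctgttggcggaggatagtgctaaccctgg
Cd3e promoter, chr9:45009562-45009861 (-): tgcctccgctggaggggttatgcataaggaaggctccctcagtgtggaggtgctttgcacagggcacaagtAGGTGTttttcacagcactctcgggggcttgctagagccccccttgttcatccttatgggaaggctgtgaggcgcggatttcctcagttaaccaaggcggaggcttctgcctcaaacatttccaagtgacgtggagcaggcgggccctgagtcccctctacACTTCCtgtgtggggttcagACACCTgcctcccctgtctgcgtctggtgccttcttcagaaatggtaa
Gzma promoter, chr13:113100932-113101231 (-): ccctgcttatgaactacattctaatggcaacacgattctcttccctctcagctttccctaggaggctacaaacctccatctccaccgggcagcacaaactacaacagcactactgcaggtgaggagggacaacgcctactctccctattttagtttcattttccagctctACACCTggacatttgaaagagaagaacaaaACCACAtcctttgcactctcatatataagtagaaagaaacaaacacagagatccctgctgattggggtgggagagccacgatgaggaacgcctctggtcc
The T-box core was present in all 4 of these windows. The promoters of the granule genes Gzmb and Prf1, read in the same way and not shown, held 0 and 1 T-box cores. Over all 32851 promoters of that table it was found in 13.7%, the ETS motif in 23.8% and the RUNX core in 16.8%. Of the 26 promoters of listed genes in the table, 8 held the T-box core, 12 the ETS motif and 12 the RUNX core. Counted by gene, these were 8, 11 and 11 of 21 genes. A match is a description of letters and not a bound site.

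The genes of the 2 β chain constant regions, Trbc1 and Trbc2, lie close together on chromosome 6 and are 95.6% identical over the 518 bases of their coding region, where 23 bases differ. Their levels are therefore uncertain, since 40.5% of the 50-base words of Trbc1 and 44.0% of those of Trbc2 occur in the other gene. The 120 bases where they differ most, bases 399 to 518 of each transcript, in the last 2 coding exons (GENCODE M21, mm10, plus strand, chromosome 6), are shown with differing bases in capitals.
Trbc1, chr6:41539234-41539662 (+): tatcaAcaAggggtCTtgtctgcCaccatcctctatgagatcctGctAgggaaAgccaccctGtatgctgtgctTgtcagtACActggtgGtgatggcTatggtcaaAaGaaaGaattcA
Trbc2, chr6:41547777-41548178 (+): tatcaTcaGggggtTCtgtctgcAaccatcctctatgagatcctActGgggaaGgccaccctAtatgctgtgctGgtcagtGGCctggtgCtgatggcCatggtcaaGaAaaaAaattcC
Among the other listed genes, Klrb1c shared 17.0% and Foxp3 14.7% of such words with overlapping or related genes.

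Transcripts of the T cell receptor and its CD3 chains were scarce in the translocation tumours and higher in most Rosa26 tumours. Cd3e, the ε chain of the CD3 complex (ENSMUSG00000032093, chromosome 9, 44998740 to 45009627, mm10), was 0.107, 0, 0.133, 0.225 and 0.0515 CPM in translocation tumours 1 to 5. In Rosa26 tumours 1 to 6 it was 13.8, 0.256, 1.37, 6.10, 0.937 and 1.47 CPM. The groups did not overlap, although Rosa26 tumour 2 lay just above the highest translocation tumour. The 0 counts in translocation tumour 2 allow up to 3 counts, or 1.49 CPM. That is above the 0.256 CPM of Rosa26 tumour 2, so the lack of overlap is uncertain. Summed over libraries, Cd3e had 9 counts in the translocation tumours and 343 counts in the Rosa26 tumours. Cd3e fell by 4.93 on the log2 scale, with an SE of 1.11 (edgeR adjusted p = 0.0413).

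Trac, the constant region of the receptor's α chain (ENSMUSG00000076928, chromosome 14, 54220521 to 54224206), was 0.322, 0, 0.133, 0.169 and 0 CPM in the translocation tumours. In the Rosa26 tumours Trac was 10.3, 0.256, 1.59, 7.24, 1.30 and 1.16 CPM. Only Rosa26 tumour 2 lay within the range of the translocation tumours. Trac fell by 4.67 on the log2 scale, with an SE of 1.13 (edgeR adjusted p = 0.0498), just inside the threshold of 0.05. Trac passed the filter through its Rosa26 counts, and with no filter it was not called (log2 fold change -4.69, edgeR adjusted p = 0.0549).

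With the filter, these were the only calls among the 32 genes by edgeR. The filter on low counts kept 26 of them, and 2 of these 26 were lower and 0 higher in the translocation tumours. Over all 17021 genes tested, 1.56% were lower and 1.14% higher, 2.7% in all. At an unadjusted p under 0.05, 12 of the 26 were lower and 1, Gzma, was higher, against 10.4% and 14.3% of all genes tested. Among genes of low count, a filter passed through the Rosa26 levels favours those that are lower in the translocation tumours. The fit without a filter is therefore given for the whole list. In it, 27 of the 32 log2 fold changes were below 0, against 45.3% of all genes, and their median was -2.33. Of the 32, 1 gene, Cd3e, was called lower, against 0.648% of all genes. At an unadjusted p under 0.05, 20 of the 32 were lower in that fit, against 7.65% of all genes.

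Other tools called more genes, among the 32 and over all. The DESeq2 Wald test, after the same filter, called 9 of the 26 listed genes tested lower, against 7.07% of all genes tested. These were Cd2, Cd247, Cd3e, Cd3g, Cd8a, Foxp3, Il7r, Trac and Zap70. It called 1, Gzma, higher, against 7.26%. The limma voom fit called 4 of the 26 lower, namely Cd2, Cd3e, Cd6 and Trac, against 8.31% of all genes tested.

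Both calls were close to the threshold. Leaving out any 1 translocation tumour ended them (edgeR adjusted p = 0.0537 to 0.0852 for Cd3e and 0.0568 to 0.0834 for Trac), and without Rosa26 tumour 1, 3, 4, 5 or 6 both genes fell below the filter. They held without Rosa26 tumour 2 (edgeR adjusted p = 0.0316 and 0.0397), and 0 of the 32 genes were called when libraries whose titles share a number were summed. With no filter and without Rosa26 tumour 1, Cd3e had a log2 fold change of -3.92 (edgeR adjusted p = 0.0605), Trac had -3.98 (0.083), and 24 of the 32 genes were below 0 with a median of -1.52.

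The other receptor genes had the same sign without a call. Cd3d, the δ chain, was 0.107, 0, 0.0883, 0.506 and 0 CPM in the translocation group and 9.42, 0.513, 0.574, 2.67, 0.530 and 1.16 CPM in the Rosa26 group. The groups did not overlap, by a margin of less than 1 count. Cd3d lay below the filter, and without a filter its log2 fold change was -3.87 ± 1.12 (SE, edgeR adjusted p = 0.108). Cd3g, the γ chain, was 0.0515 to 0.990 CPM in the translocation group and 0.427 to 13.3 CPM in the Rosa26 group (log2 fold change -3.41, edgeR adjusted p = 0.0816). Cd247, the ζ chain that carries most of the complex's signalling motifs, had a log2 fold change of -3.14 (edgeR adjusted p = 0.141) and Trbc2 had -2.24 (0.224). Without Rosa26 tumour 1 the values were -2.19 for Cd3g (edgeR adjusted p = 0.12), -0.98 for Trbc2 (0.536) and, with no filter, -2.62 for Cd3d (0.196) and -1.92 for Cd247 (0.341). Trbc1 lay below the filter, at up to 0.430 CPM in the translocation group and 0.171 to 7.40 CPM in the Rosa26 group.

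Added together, the 7 receptor and CD3 genes gave 3.65, 0.990, 1.90, 3.04 and 0.206 CPM in translocation tumours 1 to 5 and 78.0, 1.97, 7.46, 26.3, 5.91 and 9.39 CPM in Rosa26 tumours 1 to 6. The sum in Rosa26 tumour 2 lay inside the translocation range, and the other Rosa26 tumours lay above it. The sum rested on 2 counts in translocation tumour 2 (exact 95% Poisson interval 0.12 to 3.58 CPM) and on 4 counts in translocation tumour 5 (0.0561 to 0.527 CPM). In Rosa26 tumour 2 it rested on 23 counts (1.25 to 2.95 CPM). The sum of the 3 CD3 genes alone was 0.103 to 1.07 CPM in the translocation group and 1.20 to 36.5 CPM in the Rosa26 group.

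**Figure D1:**
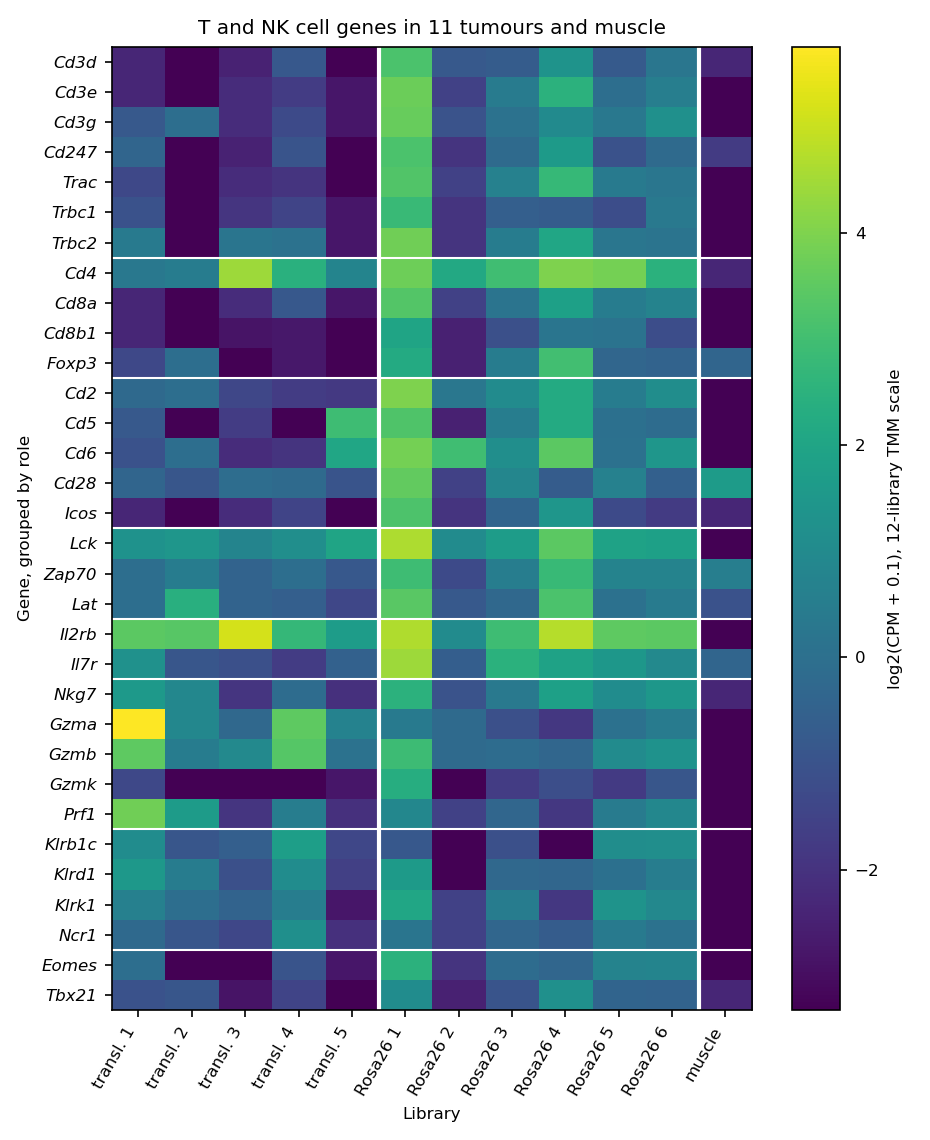
Heat map of log2(CPM + 0.1) on the scale of 12 libraries for the 32 genes (rows, grouped by role) in the 5 translocation tumours, the 6 Rosa26 tumours and the muscle (columns). Rosa26 tumour 1 had the highest tumour level of 23 genes, and 21 genes had 0 counts in the muscle.

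Among coreceptors, CD8 followed the receptor genes in sign, and Cd4 was highest in a translocation tumour. Cd8a, the α chain of CD8, was 0.107, 0, 0.133, 0.506 and 0.0515 CPM in the translocation group and 10.5, 0.256, 1.10, 3.81, 1.39 and 1.68 CPM in the Rosa26 group. Rosa26 tumour 2 lay below translocation tumour 4, and the other Rosa26 tumours lay above all translocation tumours. The log2 fold change of Cd8a was -3.99 ± 1.02 (SE, edgeR adjusted p = 0.0557). It was called without Rosa26 tumour 2 (edgeR adjusted p = 0.0443) and without translocation tumour 4 (0.0493). Without any other single translocation tumour it was not called (edgeR adjusted p = 0.0677 to 0.105). Without any other single Rosa26 tumour, Rosa26 tumour 1 included, Cd8a fell below the filter. Cd8b1, the β chain, lay below the filter and held 3 counts over the translocation tumours and 115 over the Rosa26 tumours.

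Cd4, the coreceptor of helper T cells that is also found on some dendritic cells and macrophages, was 1.29, 1.49, 23.3, 5.79 and 1.80 CPM in the translocation tumours. In the Rosa26 tumours Cd4 was 14.3, 4.70, 8.43, 17.5, 15.4 and 5.83 CPM. Translocation tumour 3 was the highest of all 11 tumours although its receptor sum was 1.90 CPM. Cd4 averaged 6.73 ± 9.43 CPM in the translocation group (SD, n = 5) and 11.02 ± 5.40 CPM in the Rosa26 group (SD, n = 6), a log2 fold change of -0.68 with an SE of 0.74 (edgeR adjusted p = 0.608). Without translocation tumour 3 the log2 fold change of Cd4 was -2.03 (edgeR adjusted p = 0.0779), and without any other single tumour it was -0.84 to -0.41. Foxp3, the master factor of regulatory T cells, was at most 0.990 CPM in the translocation tumours, where 6 counts were found in all, and 0.0854 to 8.58 CPM in the Rosa26 tumours with its peak in Rosa26 tumour 4. Its log2 fold change was -4.27 ± 1.44 (SE, edgeR adjusted p = 0.104). Foxp3 overlaps other genes on both strands, and whether the counting used strand is not given in the sources used here.

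**Figure D2:**
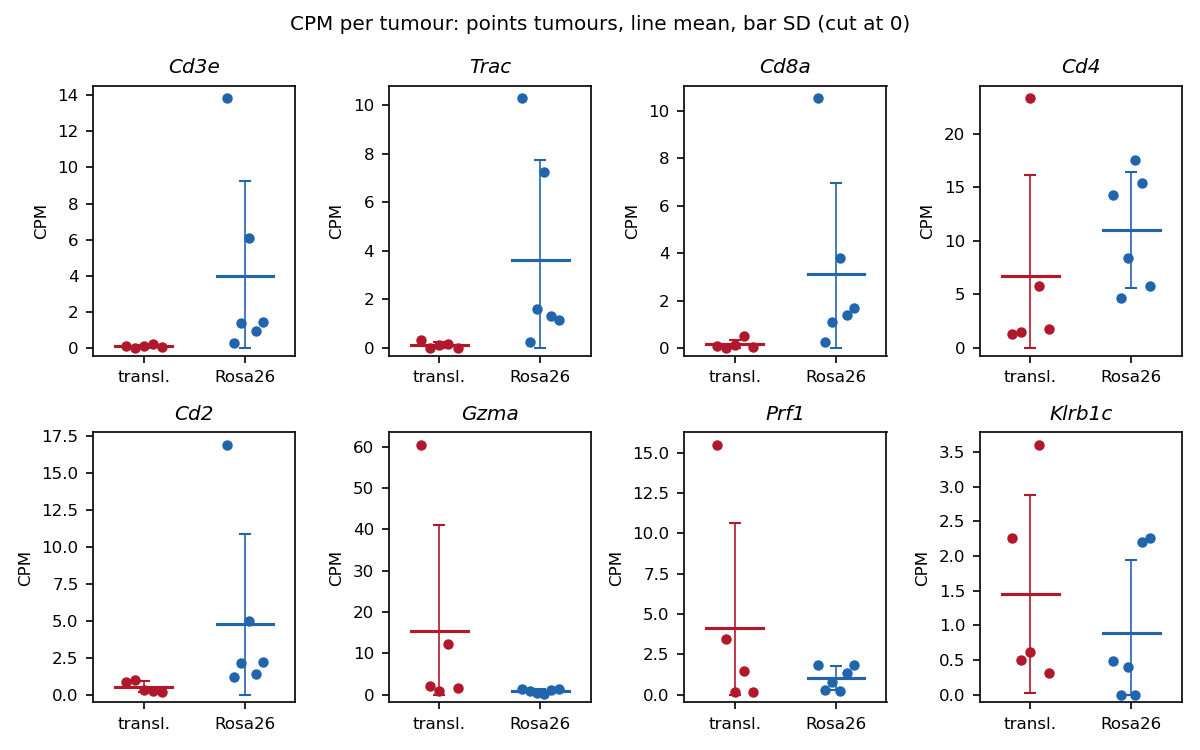
CPM of Cd3e, Trac, Cd8a, Cd4, Cd2, Gzma, Prf1 and Klrb1c in each of the 5 translocation and 6 Rosa26 tumours (points), with the group mean (line) and SD (bar, cut at 0). Cd3e and Cd2 did not overlap between the groups, but in translocation tumour 2 they rested on 0 and 2 counts. The Gzma mean of 15.4 CPM in the translocation tumours rested on translocation tumours 1 and 4.

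Of the surface and costimulation genes, 4 of 5 were tested and 0 were called by edgeR. Cd2, an adhesion receptor of T and NK cells, was 0.859, 0.990, 0.309, 0.225 and 0.206 CPM in the translocation group and 16.9, 1.20, 2.12, 4.96, 1.39 and 2.20 CPM in the Rosa26 group. The groups did not overlap. The highest translocation level, 0.990 CPM in tumour 2, rested on 2 counts, and 3 counts there would be 1.49 CPM. That is above the 1.20 CPM of Rosa26 tumour 2. The log2 fold change of Cd2 was -3.41 ± 0.89 (SE, edgeR adjusted p = 0.0596), and -2.39 ± 0.64 without Rosa26 tumour 1 (edgeR adjusted p = 0.0712). In all, the groups of 3 of the 32 genes did not overlap, Cd3d, Cd3e and Cd2, each lower in the translocation tumours. Cd3d and Cd3e had 0 counts in translocation tumour 2, so the limit of 1.49 CPM there applies to them too. Over all genes tested, 2.73% were without overlap and lower, 2.44% without overlap and higher, and 5.18% either.

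Cd5 and Cd6, neighbouring genes on chromosome 19 that encode related scavenger receptor proteins restraining T cell receptor signals, stood apart from the receptor genes in single tumours. Cd5 was 0.537, 0, 0.221, 0 and 8.39 CPM in the translocation tumours, and Cd6 was 0.430, 0.990, 0.133, 0.169 and 4.53 CPM. Translocation tumour 5 thus held the highest translocation levels of both genes together with the lowest receptor sum of any tumour. Cd5 was 10.1, 0.0854, 1.46, 4.96, 0.978 and 0.892 CPM in the Rosa26 tumours, and Cd6 was 15.4, 8.46, 2.34, 11.8, 1.02 and 2.78 CPM. Rosa26 tumour 2 held 8.46 CPM of Cd6 with 0.0854 CPM of Cd5, so the 2 genes did not move together there. Their log2 fold changes were -0.65 for Cd5 (edgeR adjusted p = 0.8) and -2.43 for Cd6 (edgeR adjusted p = 0.166). Without Rosa26 tumour 1 the log2 fold change was 0.28 for Cd5 and -2.02 for Cd6. Without translocation tumour 5 it was -3.82 for Cd5 and -4.48 for Cd6, and Cd6 was then called lower.

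Cd28, the main costimulatory receptor, was 0.464 to 0.927 CPM in the translocation group and 0.256 to 12.4 CPM in the Rosa26 group, with a Rosa26 maximum of 1.85 CPM outside tumour 1 (log2 fold change -2.01, edgeR adjusted p = 0.203, and -0.49 without that tumour, 0.627). Icos, a costimulatory receptor of activated T cells, lay below the filter, with 9 counts over the translocation tumours and 203 over the Rosa26 tumours (log2 fold change with no filter -2.61 without Rosa26 tumour 1, edgeR adjusted p = 0.23).

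The kinases and adaptor next to the receptor had smaller log2 fold changes, with 0 of 3 called by edgeR. Lck, the kinase that phosphorylates the CD3 chains, was 2.69, 2.97, 1.77, 2.31 and 4.27 CPM in the translocation group and 26.5, 2.14, 3.36, 12.01, 3.87 and 3.73 CPM in the Rosa26 group. The groups overlapped, and translocation tumour 5 was the highest of its group. The log2 fold change of Lck was -1.62 ± 0.67 (SE, edgeR adjusted p = 0.164), and -0.83 without Rosa26 tumour 1 (edgeR adjusted p = 0.354). Zap70, the kinase that binds phosphorylated CD3 chains, had -1.95 (edgeR adjusted p = 0.144), and Lat, the adaptor it phosphorylates, had -1.53 (0.402). Without Rosa26 tumour 1 they had -1.48 and -0.89, and without translocation tumour 2 Lat had -2.68 (edgeR adjusted p = 0.132).

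The cytokine receptor genes differed from each other. Il2rb, the shared β chain of the IL-2 and IL-15 receptors and abundant on NK cells, was 12.4, 11.9, 39.0, 7.03 and 3.45 CPM in the translocation group and 27.2, 2.14, 8.21, 29.2, 12.02 and 11.7 CPM in the Rosa26 group. The ranges overlapped almost fully, and the highest tumour was translocation tumour 3. Il2rb averaged 14.8 ± 14.1 CPM in the translocation group (SD, n = 5) and 15.1 ± 10.8 CPM in the Rosa26 group (SD, n = 6). Its log2 fold change was -0.02 ± 0.68 (SE, edgeR adjusted p = 0.989). Il7r, the IL-7 receptor chain of resting T cells, was 0.225 to 2.58 CPM in the translocation group and 0.598 to 22.6 CPM in the Rosa26 group (log2 fold change -2.85, edgeR adjusted p = 0.104, and -1.81 without Rosa26 tumour 1, 0.186).

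Of the 5 cytotoxic granule genes, 3 had positive log2 fold changes (Gzma, Gzmb and Prf1) and 2 negative ones (Nkg7 and, with no filter, Gzmk), with 0 called by edgeR. Gzma, granzyme A, a serine protease of the lytic granule (ENSMUSG00000023132, chromosome 13, 113093825 to 113100981), was 60.4, 1.98, 0.795, 12.3 and 1.70 CPM in translocation tumours 1 to 5. In Rosa26 tumours 1 to 6 Gzma was 1.28, 0.854, 0.397, 0.191, 1.02 and 1.37 CPM. All translocation tumours but tumour 3 lay above every Rosa26 tumour. The log2 fold change of Gzma was 4.14 ± 1.06 (SE, edgeR adjusted p = 0.056), so Gzma missed the threshold. It passed without translocation tumour 2, 3 or 5 (edgeR adjusted p = 0.049, 0.0408 and 0.0364), and without translocation tumour 1 its log2 fold change was 2.26 (edgeR adjusted p = 0.133).

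Gzmb, granzyme B, was 12.5, 1.49, 1.99, 11.1 and 1.08 CPM in the translocation group and 7.77, 0.854, 0.883, 0.762, 2.12 and 2.52 CPM in the Rosa26 group. Its peaks were in translocation tumours 1 and 4, as for Gzma. The log2 fold change of Gzmb was 1.18 ± 0.81 (SE, edgeR adjusted p = 0.394), with 0.63 to 1.97 when 1 tumour was left out, the highest without Rosa26 tumour 1 and the lowest without translocation tumour 1. Prf1, perforin, which forms pores for granzymes in the target membrane, was 15.5, 3.47, 0.177, 1.46 and 0.155 CPM in the translocation group and 0.191 to 1.84 CPM in the Rosa26 group, with a median of 1.05 CPM. Translocation tumours 3 and 5 lay below every Rosa26 tumour, and translocation tumours 1 and 2 above. Prf1 had a log2 fold change of 1.94 with an SE of 1.05 (edgeR adjusted p = 0.274). Without translocation tumour 1 it was 0.0065 (edgeR adjusted p = 0.999), so the Prf1 difference rested on that tumour.

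Nkg7, a granule membrane protein, was 0.155 to 3.22 CPM in the translocation group and 0.427 to 5.87 CPM in the Rosa26 group (log2 fold change -1.18, edgeR adjusted p = 0.424). Gzmk, granzyme K, lay below the filter, with 4 counts over the translocation tumours, against 86 counts in Rosa26 tumour 1 and 0 to 0.472 CPM in the other Rosa26 tumours.

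NK receptor genes were low in every tumour and did not separate the groups. Klrb1c, which encodes the NK1.1 antigen, was 2.26, 0.495, 0.618, 3.60 and 0.309 CPM in the translocation group and 0.489, 0, 0.397, 0, 2.20 and 2.26 CPM in the Rosa26 group. Ncr1, the activating receptor NKp46, was 0.859, 0.495, 0.309, 2.36 and 0.155 CPM in the translocation group and 1.10, 0.256, 0.751, 0.572, 1.30 and 1.05 CPM in the Rosa26 group. Translocation tumour 4 was the highest of all tumours for both genes. The log2 fold changes were 0.69 ± 0.99 for Klrb1c (SE, edgeR adjusted p = 0.707) and 0.02 ± 0.67 for Ncr1 (SE, edgeR adjusted p = 0.99). Klrd1, the CD94 chain of inhibitory and activating NK receptors, had 0.30 (edgeR adjusted p = 0.868), and Klrk1, the activating receptor NKG2D, had -0.92 (0.532). Without Rosa26 tumour 1 these were 0.86 and -0.47, and Klrb1c had 0.0082 without translocation tumour 4. At SEs of 0.67 to 0.99 on the log2 scale, even large differences could go uncalled in either direction. Gzma, at 4.14 with an SE of 1.06, was not called in the same fit. The lack of a call therefore does not show equal levels.

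The sum of the 4 NK receptor genes was 7.84, 3.47, 2.03, 9.62 and 0.772 CPM in the translocation group and 8.99, 0.513, 3.36, 1.53, 7.09 and 6.61 CPM in the Rosa26 group. Its mean was 4.75 ± 3.81 CPM in the translocation group (SD, n = 5) and 4.68 ± 3.38 CPM in the Rosa26 group (SD, n = 6). Rosa26 tumour 1, which held 78.0 CPM of receptor and CD3 genes, thus had an NK receptor sum close to that of translocation tumour 4, which held 3.04 CPM of them. The T-box factor genes were low in both groups: Eomes was 0 to 0.967 CPM in the translocation group and 0.171 to 5.93 CPM in the Rosa26 group (log2 fold change -2.59, edgeR adjusted p = 0.168), and Tbx21, which encodes T-bet and lay below the filter, was at most 0.495 CPM in the translocation group and 2.48 CPM in the Rosa26 group.

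**Figure D3:**
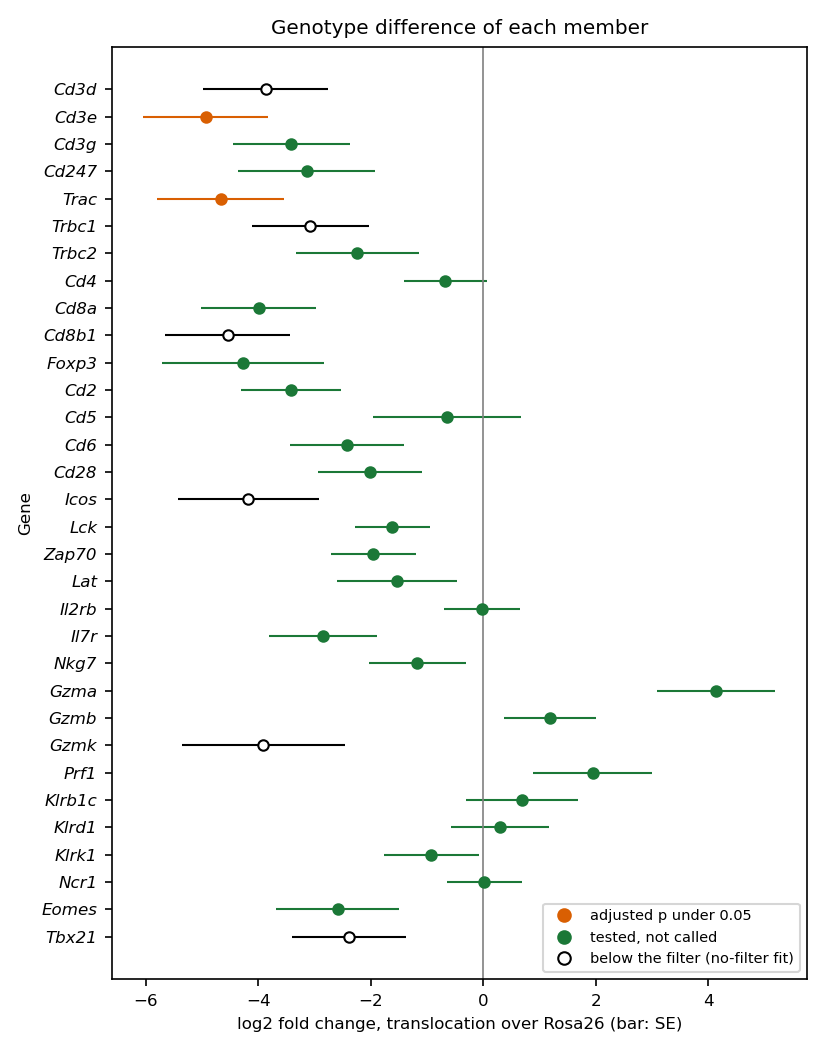
Log2 fold change, translocation over Rosa26 tumours, with its SE for the 32 genes by edgeR; filled points passed the count filter (orange called, green not called) and open points are the 6 genes below it, taken from the fit without a filter. Cd3e at -4.93 and Trac at -4.67 were called, and Gzma at 4.14 was the highest value.

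Ratios between the gene groups were formed within each tumour. The cytotoxic granule sum over 5 genes was 91.9, 8.91, 3.14, 25.8 and 3.14 CPM in the translocation group and 22.0, 2.39, 3.53, 5.34, 6.85 and 9.08 CPM in the Rosa26 group. Divided by the receptor and CD3 sum of the same tumour, it was 25.2, 9.0, 1.65, 8.48 and 15.3 in the translocation tumours and 0.282, 1.22, 0.473, 0.203, 1.16 and 0.967 in the Rosa26 tumours. These ratios did not overlap between the groups, and those of translocation tumours 2 and 5 rest on a receptor sum of 2 and 4 counts. The NK receptor sum divided by the receptor and CD3 sum was 1.07 to 3.75 in the translocation tumours and 0.058 to 1.2 in the Rosa26 tumours, which overlapped in Rosa26 tumour 5. Il2rb divided by the same sum was 2.32 to 20.6 in the translocation tumours and 0.349 to 2.03 in the Rosa26 tumours. The CD8 genes divided by that sum were 0 to 0.25 in the translocation tumours and 0.174 to 0.414 in the Rosa26 tumours. Cd4 divided by that sum was 0.353 to 12.3 in the translocation tumours and 0.183 to 2.61 in the Rosa26 tumours, with overlap. Gzma divided by the NK receptor sum was 0.391 to 7.70 in the translocation tumours and 0.118 to 1.67 in the Rosa26 tumours, also with overlap. Ratios over the receptor and CD3 sum carry the lower receptor sums of the translocation tumours. They were formed with earlier results known and were not tested.

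**Figure D4:**
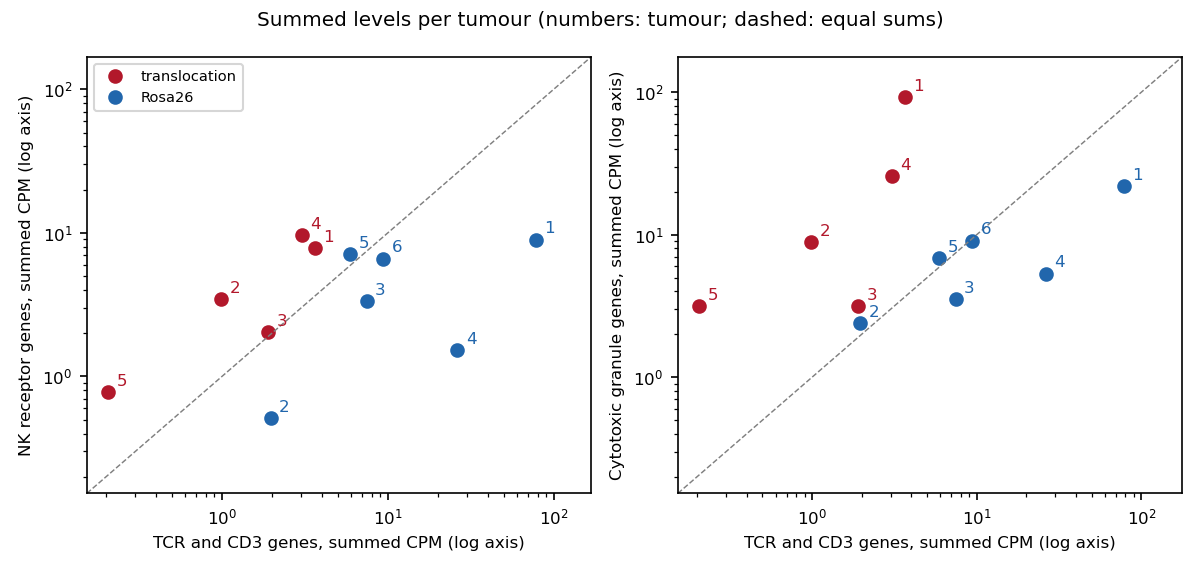
Summed CPM of the 4 NK receptor genes (left) and the 5 cytotoxic granule genes (right) against the summed CPM of the 7 T cell receptor and CD3 genes, on log axes, for each tumour (numbered points); the dashed line marks equal sums. All translocation tumours lie above the line in both panels, at ratios of 1.07 to 3.75 and 1.65 to 25.2. Rosa26 tumour 5 also lies above it in both (1.2 and 1.16), and Rosa26 tumour 2 on the right (1.22). On the left, translocation tumour 3 rests on 46 against 43 counts and translocation tumour 2 on 7 against 2 counts.

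Levels between genes were compared per kilobase of exon on the scale of 12 libraries. The translocation means were highest for Gzma at 13.8, Gzmb at 3.55, Il2rb at 3.13, Cd4 at 1.53 and Prf1 at 1.43 CPM per kb. The Rosa26 means were highest for Trbc2 at 5.11, Trac at 3.63, Il2rb at 3.28, Nkg7 at 2.80 and Lck at 2.75 CPM per kb. These orders rested on few tumours. Gzma led in translocation tumours 1 and 4, whereas Il2rb led in translocation tumours 2 and 3 and Cd5 in translocation tumour 5. Without Rosa26 tumour 1 the highest Rosa26 means were Il2rb at 2.73, Cd4 at 2.39, Trac at 2.28 and Trbc2 at 2.19 CPM per kb. Without translocation tumour 1 the highest translocation means were Gzma at 3.81, Il2rb at 3.27 and Gzmb at 2.50 CPM per kb. Cd8a was 0.0402 CPM per kb in the translocation tumours and 0.805 CPM per kb in the Rosa26 tumours, below Cd4 at 1.53 and 2.55 CPM per kb in the same groups.

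Other genes of the pathway were described from further lists. Of 15 other T cell receptor signalling genes, 14 were tested, 13 had a log2 fold change below 0 (46.8% of all genes tested) and 0 were called by edgeR, with 7 lower at an unadjusted p under 0.05 (10.4% of all genes tested). Rasgrp1, which activates Ras below the receptor, had -1.96 ± 0.49 (SE, edgeR adjusted p = 0.0527) and groups that did not overlap, at 1.98 to 4.61 CPM in the translocation group and 5.81 to 27.3 CPM in the Rosa26 group. Of 16 T lineage and subset genes, 14 had a row under their symbol, 12 were tested and all 12 were below 0, with 0 called by edgeR and 2 lower at an unadjusted p under 0.05 (10.4% of all genes tested). These 2 were Bcl11b, which fixes T cell identity (log2 fold change -3.98 ± 1.03, SE, edgeR adjusted p = 0.0579), and Tcf7 (-1.50 ± 0.43, SE, edgeR adjusted p = 0.074). Tcf7 did not overlap between the groups, at 2.47 to 9.96 CPM in the translocation group and 10.6 to 25.4 CPM in the Rosa26 group.

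Of 16 other cytotoxic and NK genes, 9 were tested, 5 above and 4 below 0, with 0 called by edgeR and 3 higher at an unadjusted p under 0.05 (14.3% of all genes tested). These 3 were Gzmd (log2 fold change 4.22, edgeR adjusted p = 0.104), Gzme (4.13, 0.152) and Tyrobp, a signalling adaptor of NK and myeloid cells (1.40, 0.105). Gzmb to Gzmg lie in one cluster on chromosome 14, between 56117626 and 56262260. Gzme, the highest of them, was 19.8, 0, 739, 878 and 0.0515 CPM in the translocation group and 59.5, 10.8, 16.1, 12.8, 1.96 and 10.8 CPM in the Rosa26 group. Translocation tumours 3 and 4 were far above all others, and translocation tumours 2 and 5 were the lowest. Translocation tumour 3 held this level with only 0.795 CPM of Gzma and 0.177 CPM of Prf1.

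Gzmf and Gzmg, singled out after their values were seen, had a different pattern. Gzmf was 119, 7.92, 0.221, 5.23 and 1.13 CPM in the translocation group and at most 0.256 CPM in any Rosa26 tumour. Gzmg was 31.8, 5.94, 9.94, 7.03 and 0 CPM in the translocation group and at most 0.191 CPM in any Rosa26 tumour. Both lay below the filter; without it, Gzmg was higher by 7.41 on the log2 scale, with an SE of 1.31 (edgeR adjusted p = 0.022), and Gzmf had 7.71 (edgeR adjusted p = 0.0704). These granzymes are near copies, and 19.8% of the 50-base words of Gzmg, 21.9% of those of Gzmd and 20.6% of those of Gzme occur in another gene, so reads may be split among them.

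**Figure D5:**
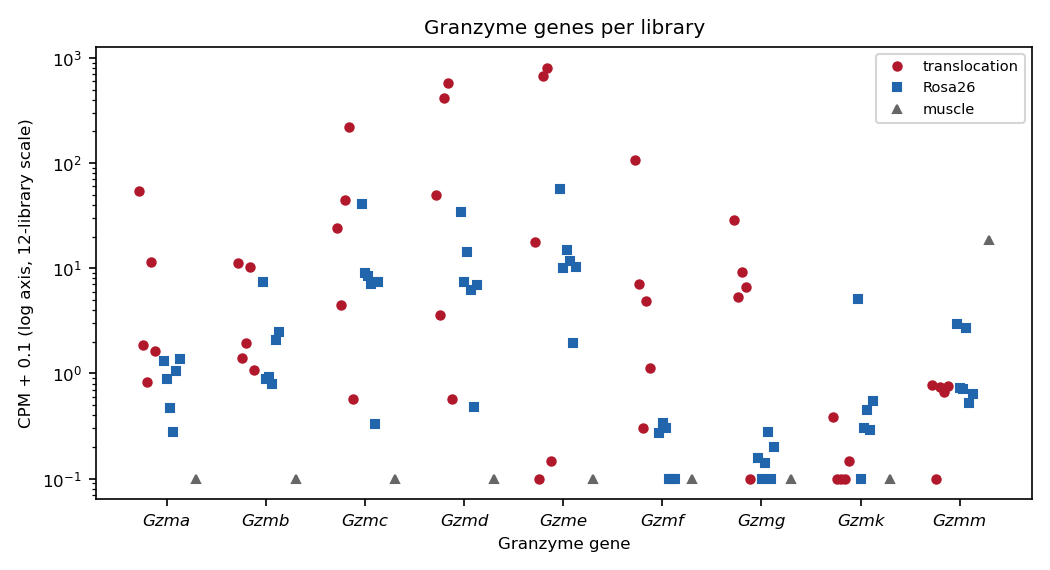
CPM + 0.1 on a log axis, scale of 12 libraries, of 9 granzyme genes in the translocation tumours, the Rosa26 tumours and the muscle (1 point per library; points at 0.1 are 0 counts). Gzma, Gzmb, Gzmc, Gzmd, Gzme, Gzmf and Gzmg each had their highest point in a translocation tumour. Gzmk was highest in Rosa26 tumour 1 and Gzmm in the muscle.

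Most of the T and NK cell genes were nearly absent from skeletal muscle, and not all of them were shown to be higher in the tumours. Translocation means of Cd3d, Cd3e, Cd247, Trac, Trbc1, Cd8a, Cd8b1, Icos, Gzmk, Eomes and Tbx21 were 0.0377 to 0.265 CPM. On this scale of 12 libraries, 3 counts in the muscle are 0.293 CPM, which is higher. The translocation mean of Foxp3, 0.243 CPM, was below its muscle level of 0.684 CPM. The muscle library held 0 counts of 21 of the 32 genes (up to 0.293 CPM on the scale of 12 libraries), 1 to 3 counts of 6 and 4 or more counts of 5. Of the 32 genes, 14 were above the muscle in every translocation tumour, against 23.1% of all 22184 genes tested. In every Rosa26 tumour 23 were above it, against 35.8%. For a gene at 0 counts in the muscle, 1 count in a tumour sufficed, as for Cd3g in translocation tumour 5 (0.0465 CPM). That is below the 0.293 CPM that 0 counts allow, so these shares do not show levels above muscle. Both comparisons share the 1 muscle library, whose spread was taken from the tumours.

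By edgeR, 1 of the 32 genes was higher in the translocation tumours than in muscle, against 3.95% of all genes tested, and 2 were higher in the Rosa26 tumours, against 5.51%. Il2rb was at least 45.8-fold higher in the translocation tumours (edgeR adjusted p = 0.0328) and at least 47.9-fold higher in the Rosa26 tumours (edgeR adjusted p = 0.0268), set against 3 counts in the muscle library; without translocation tumour 3 the first was at least 26.6-fold. Lck was at least 27.5-fold higher in the Rosa26 tumours (edgeR adjusted p = 0.0234), at least 15.9-fold without Rosa26 tumour 1 (edgeR adjusted p = 0.00964). In the translocation tumours Lck was at least 8.63-fold higher without a call (edgeR adjusted p = 0.0544), and it was called there without Rosa26 tumour 1 or 2 (edgeR adjusted p = 0.0185 and 0.0456). Gzma was at least 47.3-fold higher in the translocation tumours, again without a call (edgeR adjusted p = 0.0932), and at least 13.1-fold without translocation tumour 1. For 0 of the 32 genes was the muscle called higher by edgeR, also at an unadjusted p under 0.05, in either comparison, whereas 8.46% of all genes tested were lower in the translocation tumours and 10.5% in the Rosa26 tumours. Genes at 0 counts in the muscle could not be called higher there, and those at 1 to 3 counts hardly could. Only 5 of the 32 genes had 4 or more counts in the muscle, so these shares are not comparable.

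A few genes were also measured in muscle. Cd28 averaged 0.632 ± 0.197 CPM in the translocation group (SD, n = 5), 2.72 ± 4.46 CPM in the Rosa26 group (SD, n = 6) and 3.03 CPM in the muscle, where it had 31 counts. Zap70 averaged 0.835 ± 0.318 CPM in the translocation group and 3.20 ± 3.14 CPM in the Rosa26 group, with 1.37 CPM in the muscle. All translocation tumours were below the muscle for both genes. Of the other pathway genes, Prkcq, a protein kinase C known to be abundant in skeletal muscle, had 367.5 CPM in the muscle and Gzmm, granzyme M, had 18.3 CPM, both picked after their values were seen.

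Markers of other cell types were set beside these results. General leukocyte markers (5 genes) summed to 61.4 to 239 CPM in the translocation group and 95.4 to 765 CPM in the Rosa26 group, the highest being Rosa26 tumour 1, with 0 of 5 called by edgeR and 0 at an unadjusted p under 0.05. Macrophage markers (8 genes) summed to 367 to 2855 CPM in the translocation group and 705 to 2234 CPM in the Rosa26 group, with 0 of 8 called by edgeR and 0 at an unadjusted p under 0.05. B and plasma cell markers (7 genes) summed to 1.44 to 869 CPM in the translocation group and 5.13 to 607 CPM in the Rosa26 group. In translocation tumour 2 the sum came mostly from Ighm at 692.6 CPM and Jchain at 167 CPM. Dendritic cell markers (6 genes) summed to 11.9 to 53.1 CPM in the translocation group and 36.8 to 140 CPM in the Rosa26 group. Of the 6, 3 were lower at an unadjusted p under 0.05, against 10.4% of all genes tested. By edgeR 1 was called lower, against 1.56% of all genes tested.

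The called marker was Itgax, the CD11c integrin chain of dendritic cells and some macrophages. It was 2.15, 1.98, 7.42, 9.90 and 2.88 CPM in the translocation group and 29.0, 20.1, 23.6, 91.5, 23.6 and 28.3 CPM in the Rosa26 group. The groups did not overlap, and Itgax fell by 2.84 on the log2 scale, with an SE of 0.58 (edgeR adjusted p = 0.0285). Its call ended without translocation tumour 1 or Rosa26 tumour 3, 5 or 6 (edgeR adjusted p = 0.0556 to 0.0707). The part of these cell types in the levels of the T and NK cell genes was not tested.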

How the data were processed

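The deposited table held counts per Ensembl gene, whole numbers and not normalized, for 12 libraries made with a stranded kit after ribosomal RNA depletion, per the labels' protocols. Tools listed without role or order in the submitters' processing notes are DESeq2, RSEM, featureCounts, STAR 2.7.5a and cutadapt, and the build is mm10. Not given in the sources used here are the annotation release, the strand setting and the handling of reads with several matches. All 55536 identifiers matched GENCODE M21, which gave symbols, positions and exon lengths.

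Groups followed the genotype labels (translocation, n = 5; Rosa26, n = 6; muscle, n = 1). The genotype fit used the 11 tumours in edgeR 4.0.16 (R 4.3.3): TMM, filterByExpr at a minimum count of 10, robust dispersion, quasi-likelihood F test, and Benjamini-Hochberg adjustment over all genes tested at 0.05. Muscle was compared in a 3-group fit of all 12 libraries; the lone muscle library was assumed to vary like the tumours. Fold changes are translocation over Rosa26, and tumour over muscle. A fold against 0 counts uses 3 counts in the muscle library. Fits were tested on simulated data first. The genes changed there were above a count limit that the rarer listed genes do not reach. Every simulated gene had the same fixed dispersion, and no tumour was made an outlier. That test therefore does not cover rare genes or genes with an outlying tumour. Total counts ran from 2.96 to 25 M.

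Alternatives were DESeq2 1.42.0, its size factors, limma 3.58.1 voom with quality weights, muscle kept in the fit, no filter, a minimum of 1 CPM in 5 libraries, libraries with shared title numbers summed, ribosomal sequence genes left out, translocation tumours 2 and 5 and Rosa26 tumour 4 left out, and each tumour in turn. The fit with no filter and without Rosa26 tumour 1, and sums without TMM, were chosen after seeing the data. The 32 genes and all lists were chosen with earlier results of these data known. Every listed gene is named, and from each further list the called genes and up to 3 more by smallest p; genes named outside this are said to be so. A few genes that this rule names are not reported here.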

Additional observations from a re-analysis of the deposited data

Results flagged for a closer look

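Within a group, 1 tumour stood far from the others (Dixon's test of the gap over the range at the 95% level) for 25 pairs of gene and group. For normally distributed values chance gives about 1 in 20 groups. The rate for CPM from low counts, which are skewed, can be higher and was not determined. The genes are also not independent. In the translocation tumours the high library was tumour 1 for Il7r (2.58 CPM), Gzma (60.4 CPM), Gzmk (0.322 CPM) and Prf1 (15.5 CPM), tumour 2 for Lat (5.94 CPM, from 12 counts), tumour 3 for Cd4 (23.3 CPM) and Il2rb (39.0 CPM), tumour 4 for Cd3d (0.506 CPM) and Cd8a (0.506 CPM), and tumour 5 for Cd5 (8.39 CPM) and Cd6 (4.53 CPM). In the Rosa26 tumours the high library was tumour 1 in all 14 cases. Among receptor genes these were Cd3d (9.42 CPM), Cd3g (13.3 CPM), Cd247 (9.42 CPM), Trbc1 (7.40 CPM) and Trbc2 (14.4 CPM). Among coreceptor and surface genes they were Cd8a (10.5 CPM), Cd8b1 (4.04 CPM), Cd2 (16.9 CPM), Cd28 (12.4 CPM) and Icos (9.66 CPM). The others were Il7r (22.6 CPM), Gzmb (7.77 CPM), Gzmk (5.26 CPM) and Eomes (5.93 CPM). No low library stood apart in this way.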

How the results depend on the processing

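No paired analysis was possible because the labels give no replicate numbers, and those used follow the order of the samples. For translocation over Rosa26 tumours, 2 of the 32 genes were lower. This count was 9 with 1 higher by the DESeq2 Wald test, 4 by voom, 1 with DESeq2 size factors, with no filter or with muscle kept in the fit, and 0 with libraries summed, without translocation tumours 2 and 5 and Rosa26 tumour 4, or with no filter and without Rosa26 tumour 1. Over all genes, the higher and lower calls were 1236 and 1203 by DESeq2, 1262 and 1415 by voom, and 40 and 101 with libraries summed; the higher calls were 115 with muscle in the fit, 92 with no filter, and 61 with no filter and without Rosa26 tumour 1. Leaving out 1 tumour at a time gave 0 to 3 of the 32 genes lower and 0 to 1 higher, and 15 to 293 genes higher and 48 to 451 lower over all genes.

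For translocation tumours over muscle, 6 of the 32 genes were higher by DESeq2, 3 without translocation tumours 2 and 5 and Rosa26 tumour 4, and 2 with no filter and without Rosa26 tumour 1; leaving out 1 tumour gave 1 to 2. Over all genes, 2683 were higher by DESeq2, 563 with no filter, and 2650 higher and 3663 lower without the 3 tumours; leaving out 1 tumour gave 576 to 2144 higher and 1415 to 2992 lower. For Rosa26 tumours over muscle, 12 of the 32 genes were higher by DESeq2 and 5 without the 3 tumours, and 2 to 5 without 1 tumour. Over all genes, 3208 were higher by DESeq2, 3225 higher and 4083 lower without the 3 tumours, and 799 to 2692 higher and 1722 to 3374 lower without 1 tumour. In every fit against muscle 0 of the 32 genes were lower, and the 21 with 0 counts in the muscle could not be.

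Log2 fold changes near 0 changed sign. Il2rb, at -0.02, was 0.56 by voom, 0.67 without the 3 tumours and 0.22 with no filter and without Rosa26 tumour 1. Ncr1, at 0.02, was -0.010 by DESeq2, -0.0098 with its size factors, -0.034 by voom, -0.022 with muscle in the fit and -0.017 with no filter. Cd5 was 0.21 with no filter and without Rosa26 tumour 1, and Cd4 was 0.065 without the 3 tumours. Leaving out 1 tumour at a time gave -3.82 to 0.28 for Cd5, -0.81 to 0.28 for Il2rb, -0.24 to 0.86 for Klrd1 and -0.99 to 0.31 for Ncr1. Against muscle it gave -0.84 to 0.96 for Cd3d, -0.39 to 0.71 for Cd247, -0.52 to 0.56 for Icos and -0.77 to 0.47 for Il7r in the translocation tumours. The Rosa26 value of Cd28 against muscle was -1.69 to 0.064, and 0.027 with libraries summed. The cause was not tested. The summed levels moved by less than 1 SD between replicates without TMM. Depth limits the rarest genes most in translocation tumour 2, where 12 of the 32 genes had 0 counts.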
